A study of Mus musculus with 16 samples.

Results

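The collagen genes were examined in the cochleae of DBA mice, an inbred line (DBA/2J) that loses hearing progressively from a young age and carries hearing-loss alleles of Cdh23 and Fscn2. A collagen gene was any gene whose symbol, on a probe with 1 symbol in the array annotation, reads Col, a number, a and a number; this rule found 42 of the 18194 genes on the array, each read from its brightest probe, and used no measured difference. Transcript levels came from 16 arrays of male mice, with the whole left cochlea of 1 mouse on each array. The 4w group was 5 untreated mice at 4 weeks of age. The control group was 5 mice at 12 weeks that had received the sodium bicarbonate vehicle by daily subcutaneous injection for 8 weeks. In M+V, the largest group with 6 mice, also of 12 weeks, the injections ran daily over the same 8 weeks and held L-methionine (MET, 500 mg/kg, a methyl donor) with valproic acid (VPA, 300 mg/kg, an inhibitor of histone deacetylases). Control against 4w, called "with vehicle" from here on, holds age and injections together, M+V against 4w ("with M+V") holds age, injections and reagents, and M+V against control holds the reagents at 1 age.

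Collagens are the main structural proteins of the extracellular matrix. Each is a triple helix of chains that are hydroxylated, folded with a dedicated chaperone, secreted, trimmed and crosslinked. Fibrillar collagens form the fibrils of bone, cartilage and connective tissue, FACIT collagens sit on the surface of those fibrils, type IV collagens form the sheet of basement membranes, and the remaining types form beaded filaments, hexagonal networks or span the cell membrane. In the inner ear, types II, IX and XI are known from the tectorial membrane and the fibrous tissue of the spiral ligament and limbus, type I from the bony capsule, and type IV from the basement membranes of the stria vascularis and its vessels. Variants in chains of types II, IV, IX and XI are known causes of hearing loss.

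Values are log2 MAS5 signals after quantile normalization over all arrays, with a median of 6.90 in each. A probe entered the test when all arrays of 1 or more groups reached this median. Of the 42 collagens, 30 entered, 28 of them in all 3 groups, Col9a2 through the 4w arrays alone and Col22a1 through the 4w and control arrays. Differences are log2 fold changes with their SE from 1 limma model of all 16 arrays, and the adjusted p is the Benjamini-Hochberg value over all 21391 tested probes, called under 0.05. Of 12 markers of cochlear cells, 10 were above the median in every array; Tecta and Slc26a5, the outer hair cell motor prestin, were not. The bacterial spike-in control BioB parted the arrays into a high batch (8.91 to 9.62) with all 5 4w arrays, control replicate 1 and M+V replicates 1 and 2, and a low batch (5.73 to 6.08) with the other 4 control and 4 M+V arrays. M+V replicate 1 stood apart in another way: the summed signal of its erythroid markers was 64.6 against 8380 to 14522 in the other M+V arrays, and that of its osteoclast markers was 27912 against 3348 to 8060. For part of the results, values without M+V replicate 1 or within a batch are also given. The counts of calls without each array are given in the last section. The number of arrays limits the precision. A lower signal can come from fewer cells of a type or from less RNA per cell, which cannot be told apart in whole cochleae.

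Collagen transcripts were lower in the cochleae of 12-week-old mice than at 4 weeks, with vehicle and with M+V, and the largest called difference in each comparison was that of Col2a1. In control against 4w, 12 of the 30 tested collagens fell and 0 rose, where 1.05% of all 11449 tested genes fell and 0.402% rose. In M+V against 4w, 15 fell and 0 rose, where 2.41% of all tested genes fell and 2.52% rose. The 12 that fell with vehicle fell with M+V as well, and Col1a2, Col5a1 and Col22a1 passed the test with M+V only; the difference between M+V and control was not called for any of these 3. Both comparisons use the same 4w arrays, so the second is no independent repeat of the first. Every array of the older group was below every 4w array for 18 of the 30 collagens with vehicle (3.71% of all tested genes) and for 14 with M+V (2.73%). The median log2 fold change of the 30 was -0.50 with vehicle and -0.61 with M+V, against 0.01 and 0.03 over all tested genes. It was below 0 for 27 collagens with vehicle and for all 30 tested with M+V. Of the 28 collagens that reached the array median in all 3 groups, 12 fell with vehicle and 14 with M+V.

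**Figure D1:**
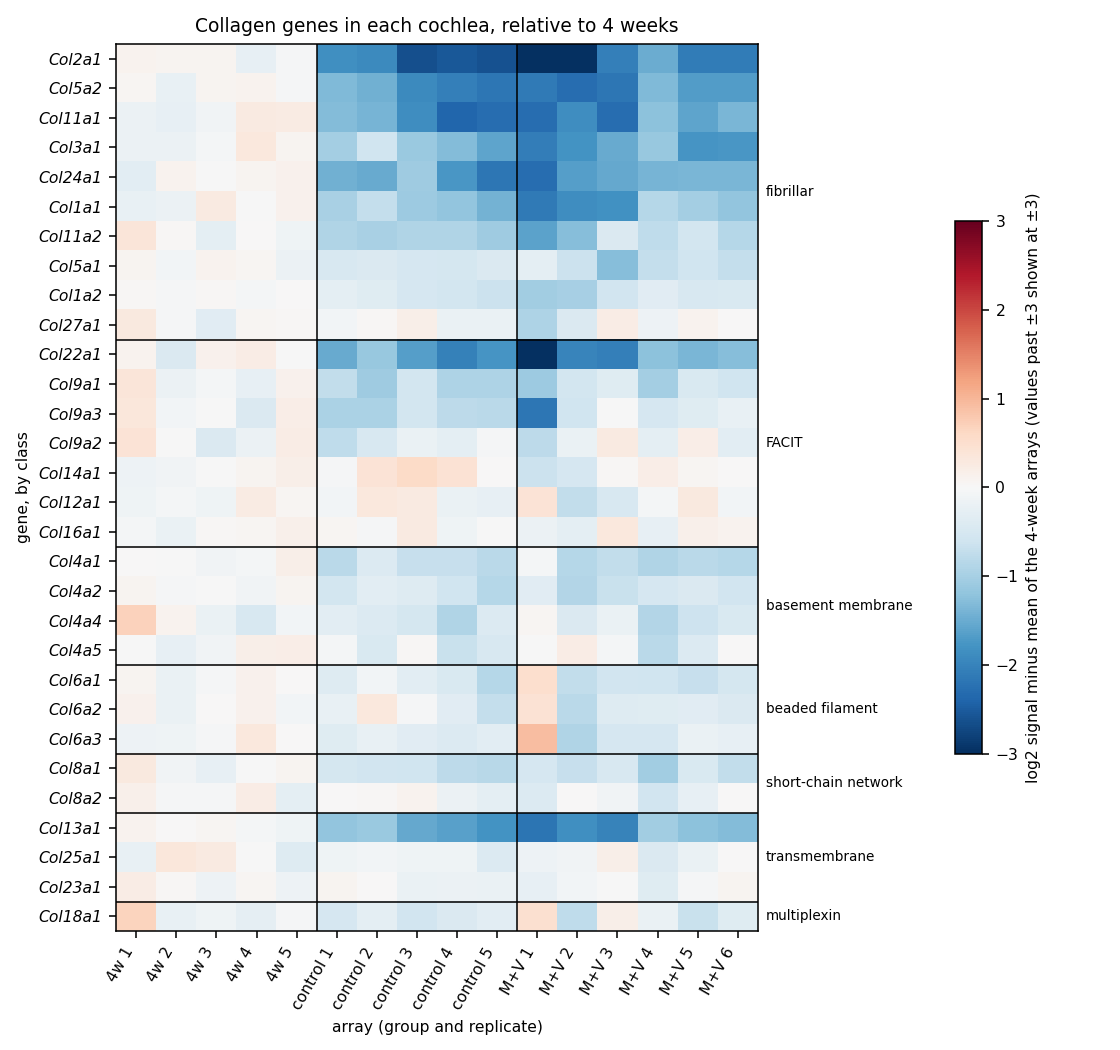
Heat map of the 30 tested collagens (rows, by class) in the 16 arrays (columns, by group), as log2 signal minus the mean of the 4w arrays, with the colour scale capped at 3 in either direction. The fibrillar rows Col2a1, Col11a1, Col5a2 and Col24a1 are lower in all control and M+V arrays, and M+V replicate 1 has the lowest Col2a1 and Col22a1.

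Of the 10 tested fibrillar collagens, 7 fell with vehicle and 9 fell with M+V, with class medians of -1.10 and -1.54. Col2a1, the chain of type II collagen of cartilage and the tectorial membrane, had log2 signals of 12.12, 12.09, 12.09, 11.76 and 11.98 at 4w (replicates 1 to 5) and 10.16, 10.09, 9.37, 9.46 and 9.41 in control, and in M+V a lowest value of 7.44, a median of 9.91 and a highest of 10.52. All older arrays were below all 4w arrays, while control and M+V overlapped. Col2a1 fell by 2.31 on the log2 scale with vehicle (SE 0.41, adjusted p = 0.0084), a 4.96-fold lower signal, and by 2.56 with M+V (SE 0.39, adjusted p = 0.00178). The lowest Col2a1 value, 7.44, was M+V replicate 1; without that array the M+V difference was -2.16 (adjusted p = 8.67e-05).

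Col11a1, a chain of type XI collagen, which lies inside type II fibrils and limits their width, had log2 signals of 12.11, 12.05, 12.18, 12.57 and 12.54 at 4w and 10.99, 10.89, 10.42, 9.92 and 9.9998 in control, and a lowest value of 10.0042, a median of 10.57 and a highest of 11.06 in M+V. No older array reached the 4w arrays. Its signal fell by 1.85 with vehicle (SE 0.24, adjusted p = 0.00077) and by 1.77 with M+V (SE 0.23, adjusted p = 0.000486). Col11a2, its partner chain, fell by 0.95 with vehicle (SE 0.18, adjusted p = 0.015) and by 0.91 with M+V (SE 0.18, adjusted p = 0.00765). The control arrays of Col11a2 lay close together, from 8.92 to 9.08, below the 4w range of 9.70 to 10.35.

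Col5a2, a chain of type V collagen, which starts type I fibrils, had the smallest adjusted p of the family in both comparisons when each gene is read from its brightest probe. Its log2 signals were 13.48, 13.19, 13.50, 13.52 and 13.39 at 4w and 12.10, 11.97, 11.50, 11.37 and 11.25 in control, and a lowest value of 11.14, a median of 11.51 and a highest of 12.10 in M+V. The 4w arrays lay close together and well above every older array. Col5a2 fell by 1.78 with vehicle (SE 0.19, adjusted p = 0.000101) and by 1.87 with M+V (SE 0.18, adjusted p = 3.86e-05).

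Col24a1, a fibrillar chain best known from developing bone, had log2 signals of 9.39, 9.82, 9.69, 9.80 and 9.85 at 4w and 8.27, 8.19, 8.63, 7.96 and 7.54 in control, and a lowest value of 7.43, a median of 8.25 and a highest of 8.34 in M+V. It fell by 1.59 (SE 0.19, adjusted p = 0.000486) with vehicle and 1.60 with M+V (SE 0.19, adjusted p = 0.000194), and no older array reached the 4w range. Col3a1, the chain of type III collagen of soft connective tissue and vessel walls, had 13.02, 13.00, 13.14, 13.50 and 13.28 at 4w and 12.18, 12.59, 12.07, 11.89 and 11.60 in control, and a lowest value of 11.11, a median of 11.43 and a highest of 12.04 in M+V. The 4w arrays were again apart from all others, and M+V and control overlapped. Col3a1 fell by 1.12 with vehicle (SE 0.18, adjusted p = 0.00425) and by 1.67 with M+V (SE 0.17, adjusted p = 7.57e-05).

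Type I collagen, the main protein of bone matrix, is built of 2 chains of Col1a1 for each chain of Col1a2. Col1a1 had log2 signals of 11.77, 11.82, 12.26, 11.97 and 12.11 at 4w and 11.01, 11.27, 10.90, 10.80 and 10.58 in control, and a lowest value of 9.87, a median of 10.49 and a highest of 11.14 in M+V, with no overlap between 4w and the older mice. It fell by 1.08 with vehicle (SE 0.22, adjusted p = 0.0189) and by 1.47 with M+V (SE 0.21, adjusted p = 0.000799). Col1a2 differed by -0.48 (SE 0.13, adjusted p = 0.0793, not called) with vehicle and fell by 0.65 with M+V (SE 0.12, adjusted p = 0.00647). The brightest Col1a2 probe, at 14.62 ± 0.04 (SD, n = 5) at 4w, lay near the highest value of the whole table (15.4), and the gene's 3 tested probes gave differences from -1.35 to -0.48 with vehicle, of which 2 passed the test.

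Col5a1, the partner chain of Col5a2, differed by -0.47 with vehicle (SE 0.13, adjusted p = 0.101) and fell by 0.71 with M+V (SE 0.13, adjusted p = 0.005). Col27a1, a fibrillar chain of growth plate cartilage, was the single tested member of the class that passed in neither comparison, with -0.06 (95% interval -0.44 to 0.32) and -0.19 (95% interval -0.56 to 0.17); without M+V replicate 1 the latter was -0.05. Its signal was 11.13 ± 0.23 at 4w, 11.07 ± 0.16 in control (both SD, n = 5) and 10.94 ± 0.42 in M+V (SD, n = 6). These are values of the brightest probe. A second tested Col27a1 probe was lower, at -0.49 with vehicle (95% interval -0.96 to -0.02, adjusted p = 0.338). With M+V that probe was at -0.36 (95% interval -0.81 to 0.09, adjusted p = 0.336), so it was called in neither comparison. Col5a3, the third chain of type V collagen, was not tested.

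**Figure D2:**
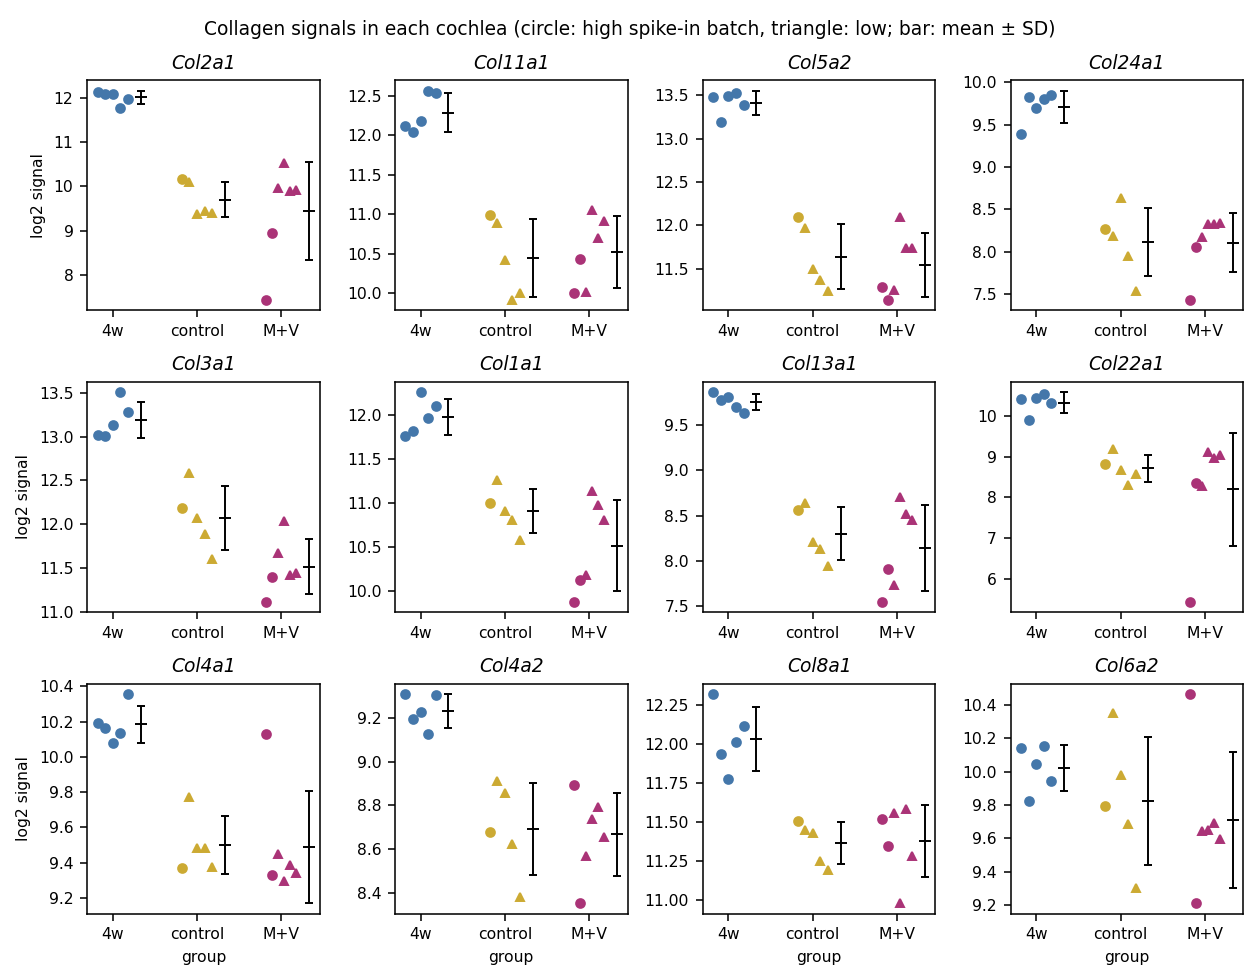
Log2 signal of 12 collagens in each array, by group, with circles for the high spike-in batch, triangles for the low batch and bars for the mean ± SD. The 4w arrays of Col2a1, Col11a1, Col5a2, Col24a1, Col3a1 and Col13a1 lie above every control and M+V array, and those of Col6a2 overlap both.

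The promoters of 5 collagens that fell, 4 fibrillar chains and Col13a1, are shown to set the sequence at their starts beside these differences. RefSeq (GRCm38.p6) promoter windows of 250 bases before the start and 50 from it on were at hand for 11 of the 15 collagens that fell in either comparison; Col1a1, Col2a1, Col5a2 and Col22a1 had no entry. Printed are the 150 bases just before the start, 5′ to 3′ on the gene's strand, with matches on either strand to 4 short motifs in capitals, none of which overlap in what is printed. The motif of the TATA-binding protein was searched as TATAAA. The NF-Y motif was searched as CCAAT, the GC box of Sp1 as GGGCGG and the core of SOX sites as AACAAT.
Col1a2, chr6:4505468-4505617, plus strand: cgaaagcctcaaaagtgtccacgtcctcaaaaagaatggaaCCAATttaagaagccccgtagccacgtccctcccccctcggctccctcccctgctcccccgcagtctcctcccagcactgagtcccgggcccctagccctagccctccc
Col3a1, chr1:45311388-45311537, plus strand: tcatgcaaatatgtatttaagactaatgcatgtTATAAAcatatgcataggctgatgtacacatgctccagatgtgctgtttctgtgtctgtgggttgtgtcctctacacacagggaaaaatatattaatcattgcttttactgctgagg
Col11a1, chr3:114030390-114030539, plus strand: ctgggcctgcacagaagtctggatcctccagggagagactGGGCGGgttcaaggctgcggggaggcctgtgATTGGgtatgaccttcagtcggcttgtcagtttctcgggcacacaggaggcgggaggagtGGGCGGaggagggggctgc
Col24a1, chr3:145292322-145292471, plus strand: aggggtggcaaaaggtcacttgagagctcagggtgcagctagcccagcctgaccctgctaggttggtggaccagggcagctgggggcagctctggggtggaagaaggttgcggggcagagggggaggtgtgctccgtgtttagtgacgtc
Col13a1, chr10:61979109-61979258, minus strand: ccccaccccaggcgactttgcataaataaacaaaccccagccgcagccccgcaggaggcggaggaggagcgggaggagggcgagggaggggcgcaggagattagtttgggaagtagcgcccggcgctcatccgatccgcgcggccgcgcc

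Counted from the start, with -1 for the last base before it, the motif began at -109 in Col1a2 (NF-Y), at -117 in Col3a1 (TATA) and at -79 in Col11a1 (NF-Y, read on the other strand), and Col11a1 had GC boxes at -110 and -19. None of the 4 motifs lay in the printed stretch of Col24a1 or Col13a1. Over the whole windows, the TATA motif was found in 3 of the 11 collagens that fell, the NF-Y motif in 5, the GC box in 7 and the SOX core in 1, and in 0, 4, 9 and 0 of the 12 tested collagens that did not fall and had an entry. The shares over all 32851 RefSeq windows were 13.6%, 37.4%, 35.7% and 10.7%. The motifs were chosen with the fold changes known, and a match is only a description of the letters.

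**Figure D3:**
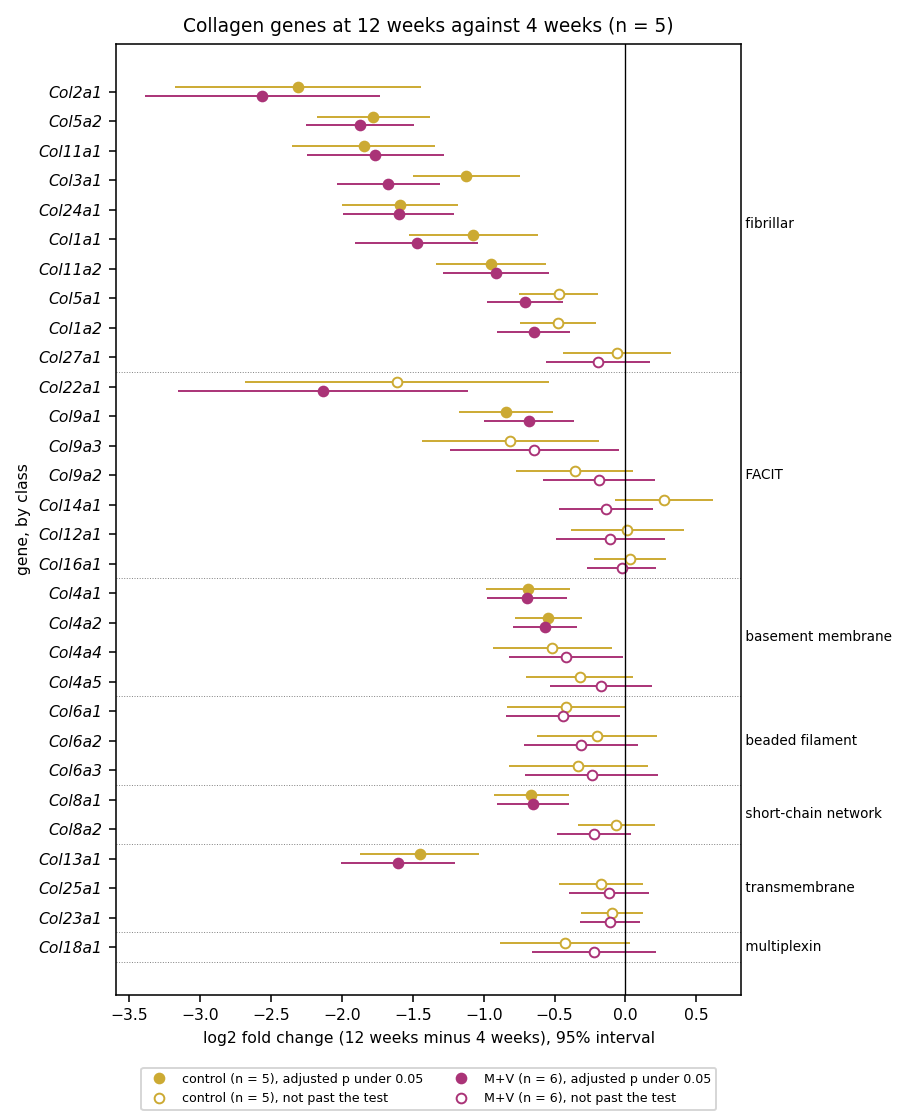
Log2 fold change against 4w of each tested collagen, with its 95% interval, for control and for M+V, ordered by class; filled points passed an adjusted p of 0.05. The 2 sets of points share the 4w arrays, and the fibrillar class reaches -2.31 (Col2a1 with vehicle) and -2.56 (with M+V), while the beaded filament chains have no filled point.

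Of the 5 FACIT collagens that reached the array median in all 3 groups, Col9a1 fell in both comparisons and the other 4 passed in neither; Col22a1 and Col9a2, which did not reach it in all groups, are given by their own values. Col9a1, a chain of type IX collagen on the surface of type II fibrils, had log2 signals of 12.26, 11.71, 11.82, 11.64 and 12.02 at 4w and 11.16, 10.83, 11.35, 10.96 and 10.96 in control, and a lowest value of 10.80, a median of 11.32 and a highest of 11.54 in M+V. All older arrays were below all 4w arrays, by a narrow margin for the highest M+V array. Col9a1 fell by 0.84 with vehicle (SE 0.16, adjusted p = 0.0127) and by 0.68 with M+V (SE 0.15, adjusted p = 0.0164). Its second tested probe was not called in either comparison, with -0.49 and -0.28. The partner chain Col9a3 differed by -0.81 with vehicle (SE 0.30, adjusted p = 0.216) and -0.64 with M+V (SE 0.28, adjusted p = 0.191), neither called. M+V replicate 1 was the lowest array of Col9a3 at 7.53; without it the difference with vehicle was called (adjusted p = 0.00518) and that with M+V was -0.34 (adjusted p = 0.161). The second tested probe of Col9a3, at -0.75 with vehicle, was called with all arrays (adjusted p = 0.0361). Col9a2 differed by -0.36 with vehicle (SE 0.20) and -0.19 with M+V (SE 0.19), not called, and without M+V replicate 1 its difference with M+V was -0.07.

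Col22a1, a FACIT collagen known from tissue junctions such as that of muscle and tendon, had log2 signals of 10.43, 9.89, 10.45, 10.55 and 10.33 at 4w and 8.82, 9.20, 8.68, 8.31 and 8.57 in control, and a lowest value of 5.43, a median of 8.65 and a highest of 9.11 in M+V. All older arrays were below the 4w arrays, and M+V replicate 1 was far below the rest of its group. With M+V, Col22a1 fell by 2.13 (SE 0.49, adjusted p = 0.0187); with vehicle it differed by -1.61 (SE 0.51, adjusted p = 0.147), not called. Without M+V replicate 1 the shared spread was smaller and both were called, at -1.58 (adjusted p = 0.00024) and -1.61 (adjusted p = 0.000212). Of its 3 tested probes, the other 2 were not called in either comparison. Col12a1, Col14a1 and Col16a1, which bind type I and other fibrils, were not called against 4w. With vehicle they were at 0.01, 0.27 (95% interval -0.08 to 0.62) and 0.03, and with M+V all 3 lay from -0.14 to -0.03. Their adjusted p values were 0.496 or higher. Without M+V replicate 1 the differences with M+V were -0.21 for Col12a1, -0.04 for Col14a1 and 0.0060 for Col16a1. The second tested probe of Col14a1 was at -0.06 with vehicle, the other direction, and at -0.21 with M+V, not called.

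Of the 4 tested basement membrane collagens, Col4a1 and Col4a2 fell in both comparisons, and the class medians were -0.53 and -0.49. These chains form the type IV network found under nearly all epithelia and vessels. Col4a1 had log2 signals of 10.19, 10.16, 10.08, 10.14 and 10.36 at 4w and 9.37, 9.77, 9.48, 9.48 and 9.37 in control, and a lowest value of 9.29, a median of 9.36 and a highest of 10.13 in M+V. The control arrays were all below the 4w arrays, whereas the highest M+V array, replicate 1, overlapped them. Col4a1 fell by 0.69 with vehicle (SE 0.14, adjusted p = 0.0202) and by 0.70 with M+V (SE 0.13, adjusted p = 0.00728). Its second tested probe was called in neither comparison, at -0.54 and -0.56.

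Col4a2 had log2 signals of 9.31, 9.19, 9.23, 9.13 and 9.31 at 4w and 8.68, 8.91, 8.86, 8.62 and 8.38 in control, and a lowest value of 8.35, a median of 8.70 and a highest of 8.90 in M+V, with no overlap between 4w and older arrays. It fell by 0.54 with vehicle (SE 0.11, adjusted p = 0.0227) and by 0.57 with M+V (SE 0.11, adjusted p = 0.00703). Col4a4 and Col4a5, chains of the specialised type IV network of kidney and cochlea, differed by -0.51 (SE 0.20) and -0.32 (SE 0.18) with vehicle, with adjusted p values of 0.251 and 0.448, and by -0.42 and -0.17 with M+V. Col4a3 and Col4a6 were not tested.

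Col8a1, a chain of the short-chain network collagen of vessels and the cornea's inner membrane, had log2 signals of 12.32, 11.93, 11.78, 12.01 and 12.11 at 4w and 11.51, 11.45, 11.43, 11.25 and 11.19 in control, and a lowest value of 10.98, a median of 11.43 and a highest of 11.58 in M+V. All older arrays were below the 4w arrays. Col8a1 fell by 0.66 with vehicle (SE 0.12, adjusted p = 0.0127) and by 0.65 with M+V (SE 0.12, adjusted p = 0.00535), and its second tested probe (-0.38 and -0.43) was called in neither. Its partner Col8a2 differed by -0.06 (SE 0.13) and -0.22 (SE 0.12).

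Among the transmembrane collagens, 1 of 3 fell. Col13a1, which sits in the cell membrane at adhesion sites and nerve-muscle junctions, had log2 signals of 9.86, 9.77, 9.80, 9.70 and 9.63 at 4w and 8.56, 8.64, 8.21, 8.13 and 7.95 in control, and a lowest value of 7.55, a median of 8.18 and a highest of 8.71 in M+V. The 4w arrays lay within a narrow range above every older array. Col13a1 fell by 1.45 with vehicle (SE 0.20, adjusted p = 0.00113) and by 1.61 with M+V (SE 0.19, adjusted p = 0.000229), the largest difference outside the fibrillar class that was called in both comparisons. Col23a1 and Col25a1, of the same class, differed by -0.10 and -0.17 with vehicle and by -0.11 and -0.12 with M+V, with adjusted p values of 0.549 or higher.

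None of the 3 tested beaded filament chains, which build the type VI microfibrils around cells, passed the test. Col6a2 had log2 signals of 10.14, 9.83, 10.05, 10.15 and 9.95 at 4w and 9.80, 10.35, 9.98, 9.69 and 9.30 in control, and a lowest value of 9.21, a median of 9.65 and a highest of 10.47 in M+V, and the groups overlapped. Its difference was -0.20 (95% interval -0.62 to 0.22, adjusted p = 0.716) with vehicle and -0.31 (95% interval -0.72 to 0.09, adjusted p = 0.354) with M+V. A second tested Col6a2 probe was at -0.29 (adjusted p = 0.361) and -0.38 (adjusted p = 0.103), not called either. Col6a1 and Col6a3 differed by -0.42 (SE 0.20) and -0.33 (SE 0.23) with vehicle and by -0.44 (SE 0.19) and -0.24 (SE 0.22) with M+V. M+V replicate 1 was the highest M+V array for all 3 chains, and without it Col6a1 and Col6a3 fell in M+V against 4w, at -0.63 (adjusted p = 0.00507) and -0.47 (adjusted p = 0.033).

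Col18a1, a multiplexin of basement membranes whose end piece is endostatin, had log2 signals of 8.37, 7.47, 7.57, 7.44 and 7.68 at 4w and 7.20, 7.41, 7.12, 7.28 and 7.39 in control, and a lowest value of 6.94, a median of 7.43 and a highest of 8.18 in M+V. All control arrays were below the 4w arrays, but the spread at 4w was wide, and M+V overlapped both. It differed by -0.42 with vehicle (SE 0.22, adjusted p = 0.403) and by -0.22 with M+V (SE 0.21, adjusted p = 0.567), the latter -0.36 without M+V replicate 1.

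The 12 collagens that were not tested did not reach the array median in every array of any group. All 16 arrays were under it for 8 of the 12: Col10a1, the collagen of hypertrophic cartilage, Col15a1, Col17a1, Col20a1, Col26a1, Col4a6, Col6a4 and Col6a5. Col10a1 ranged from 0.58 to 4.72 over the 16 arrays. Col5a3 reached the median in 8 arrays, Col19a1 in 5, Col7a1, the anchoring fibril collagen, in 2 and Col4a3 in 1.

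Chains that assemble together did not all fall by the same amount. For 10 pairs of partner chains with both members tested, the log2 ratio of the 2 probes was compared between groups by a two-sided exact permutation test (30 tests, adjusted together); the level of such a ratio depends on the probes and only its change is read. The ratio of Col5a1 to Col5a2 rose from 4w to the older mice: it ran from -3.29 to -2.99 at 4w, from -2.29 to -1.39 in control and from -2.53 to -1.30 in M+V. The change was 1.31 with vehicle (exact p = 0.00794, adjusted p = 0.0340) and 1.17 with M+V (exact p = 0.00433, adjusted p = 0.0340), and over every combination of the 2 genes' tested probes it stayed between 1.31 and 1.55 and between 1.17 and 1.62. The smallest p that the 5 against 5 design allows is 0.00794. Within the high batch the change with M+V was 1.74 (exact p = 0.0476, the smallest that 2 against 5 arrays allow, adjusted p = 0.159).

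The ratio of Col1a1 to Col1a2 fell by 0.60 with vehicle (exact p = 0.00794, adjusted p = 0.0340) and by 0.83 with M+V (exact p = 0.00216, adjusted p = 0.0325), but its direction depended on the Col1a2 probe. Over the 6 probe combinations it ran from -0.87 to 0.27 with vehicle and from -1.22 to 0.03 with M+V. Another 3 called changes kept 1 direction over their probe combinations. Col8a1 to Col8a2 fell by 0.60 with vehicle, Col6a1 to Col6a2 fell by 0.22 with vehicle and Col11a1 to Col11a2 fell by 0.85 with M+V. The adjusted p values of these 3 were 0.0340, 0.0340 and 0.0406 by the exact test. Without M+V replicate 1 the change of Col11a1 to Col11a2 with M+V was -0.89 and no longer called (exact p = 0.0238, adjusted p = 0.0714). Col9a2 entered the test through the 4w arrays alone, the group in which its signal was highest, so its ratio is given as a description, with no p. The ratio of Col9a1 to Col9a2 differed by -0.48 with vehicle and by -0.49 with M+V. Over the probe combinations it ran from -0.48 to -0.13 and from -0.49 to -0.09. With the second probe of Col8a1 or Col6a2 the exact p rose to 0.0952 and 0.365.

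No change was called between Col4a1 and Col4a2, whose ratio differed by -0.14 (exact p = 0.103) and -0.13 (exact p = 0.312). These genes lie next to each other on chromosome 8, with overlapping annotations. The ratio of Col9a1 to Col9a3 differed by -0.03 with vehicle (exact p = 0.698) and by -0.04 with M+V (exact p = 0.957), and by -0.26 with M+V without M+V replicate 1 (exact p = 0.0794). Without that array the ratio of Col4a1 to Col4a2 differed by -0.21 with M+V (exact p = 0.0794). Col3a1 and Col5a2, both with large falls, are neighbours on chromosome 1 of GRCm38.p6 with 0 protein-coding genes between them. None of the 10 ratios passed the exact test in M+V against control; that of Col5a1 to Col5a2 differed by -0.14 (exact p = 0.591).

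**Figure D4:**
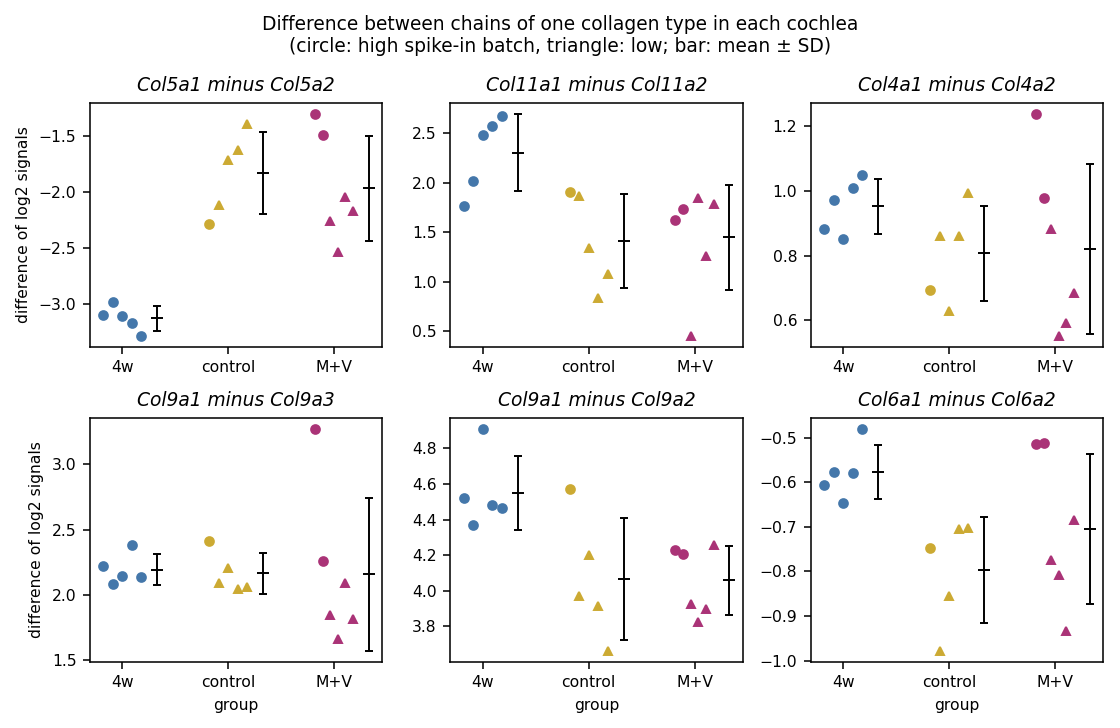
Log2 ratio of 2 partner collagen chains in each array, by group, for 6 pairs, with the mean ± SD. The ratio of Col5a1 to Col5a2 lies between -3.29 and -2.99 in the 4w arrays and at -2.53 or above in all others, while the ratio of Col4a1 to Col4a2 overlaps between groups.

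Age and spike-in batch were partly confounded, since all 4w arrays were in the high batch. With the batch as a block, 9 collagens fell in control against 4w, 8 of them among the 12. Col4a1, Col4a2, Col8a1 and Col9a1 were no longer called (adjusted p = 0.175, 0.0866, 0.12 and 0.0607). In M+V against 4w all 15 were still called, and 17 in all. Of all 21391 tested probes, 170 and 1427 were called in either direction with the block, and 295 and 1129 without it. Within the high batch, where a single control array stands against 5 4w arrays and is assumed to vary like the others, the differences with vehicle were -1.85 for Col2a1, -1.30 for Col11a1, -1.32 for Col5a2, -1.44 for Col24a1, -1.19 for Col13a1 and -0.81 for Col4a1, and only Col5a2 was called (adjusted p = 0.0494). With M+V replicates 1 and 2 against the same 4w arrays, 11 collagens fell, among them 10 of the 15. Of all tested probes, 1039 were called there in either direction. Col2a1 was at -3.82 there (adjusted p = 0.00298), Col5a2 at -2.20 (adjusted p = 0.00112), Col3a1 at -1.93 (adjusted p = 0.00298) and Col22a1 at -3.44 (adjusted p = 0.0256). However, 1 of these 2 M+V arrays is replicate 1, which stood apart in its erythroid and osteoclast markers. That array held the lowest M+V values of Col2a1 (7.44) and Col22a1 (5.43). The smaller differences of these 2 genes without it, over both batches, are given above. The low batch holds no 4w array.

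No collagen differed past the test between M+V and control. In limma, 0 of the 30 tested collagens passed the adjusted p (0% of all 11449 tested genes were lower and 0% higher), 2 had an unadjusted p under 0.05 and 0 passed the study's own cutoffs of a fold over 1.5 with an unadjusted p under 0.05, which 0.987% of all tested genes passed downwards and 0.201% upwards. Within the high batch, with 1 control array and M+V replicates 1 and 2, 7 of the 30 passed these cutoffs downwards, where 5.72% of all tested genes did, and 0 passed the adjusted p. The methods' t-test called 0 after adjustment and left 1 with an unadjusted p under 0.05. The median over the 30 was -0.02, with 19 below 0 and 11 above. No collagen had M+V and control arrays fully apart, against 0.288% (M+V lower) and 0.611% (M+V higher) of all tested genes.

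The 2 collagens under the unadjusted threshold were Col3a1 and Col14a1, and both were lower with M+V. Col3a1, whose array values are given above, differed by -0.55 (SE 0.17, adjusted p = 0.404). Col14a1 had log2 signals of 9.36, 9.81, 9.97, 9.83 and 9.42 in control and a lowest value of 8.76, a median of 9.43 and a highest of 9.61 in M+V, and the groups overlapped. It differed by -0.41 (SE 0.16, adjusted p = 0.458). Within the low batch, 4 against 4 arrays, the differences were -0.39 and -0.27, and within the high batch, with 1 control array, -0.92 and -0.53.

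The interval of the difference between M+V and control included 0 for 28 of the 30 collagens and lay below it for Col3a1 (-0.91 to -0.19) and Col14a1 (-0.74 to -0.08). These are the brightest probes. The second tested probe was at -0.47 (-0.87 to -0.08) for Col3a1 and at -0.16 (-0.60 to 0.29) for Col14a1. That of Col9a3 was at 0.34 (0.0037 to 0.69), above 0. For the brightest probes the interval was -0.40 to 0.56 for Col11a1, -0.40 to 0.38 for Col24a1, -0.47 to 0.29 for Col5a2 and -0.25 to 0.20 for Col4a2. It was wider for Col2a1 (-1.08 to 0.58) and Col22a1 (-1.55 to 0.50), whose M+V arrays include the low replicate 1. The sign of many differences turned with the batch: 19 of the 30 were above 0 within the low batch, with a median of 0.06, whereas the median within the high batch was -0.24. Col2a1, for example, was at 0.49 within the low batch and at -1.97 within the high batch, and Col11a1 at 0.37 and -0.77; the M+V arrays of the high batch are replicates 1 and 2.

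**Figure D5:**
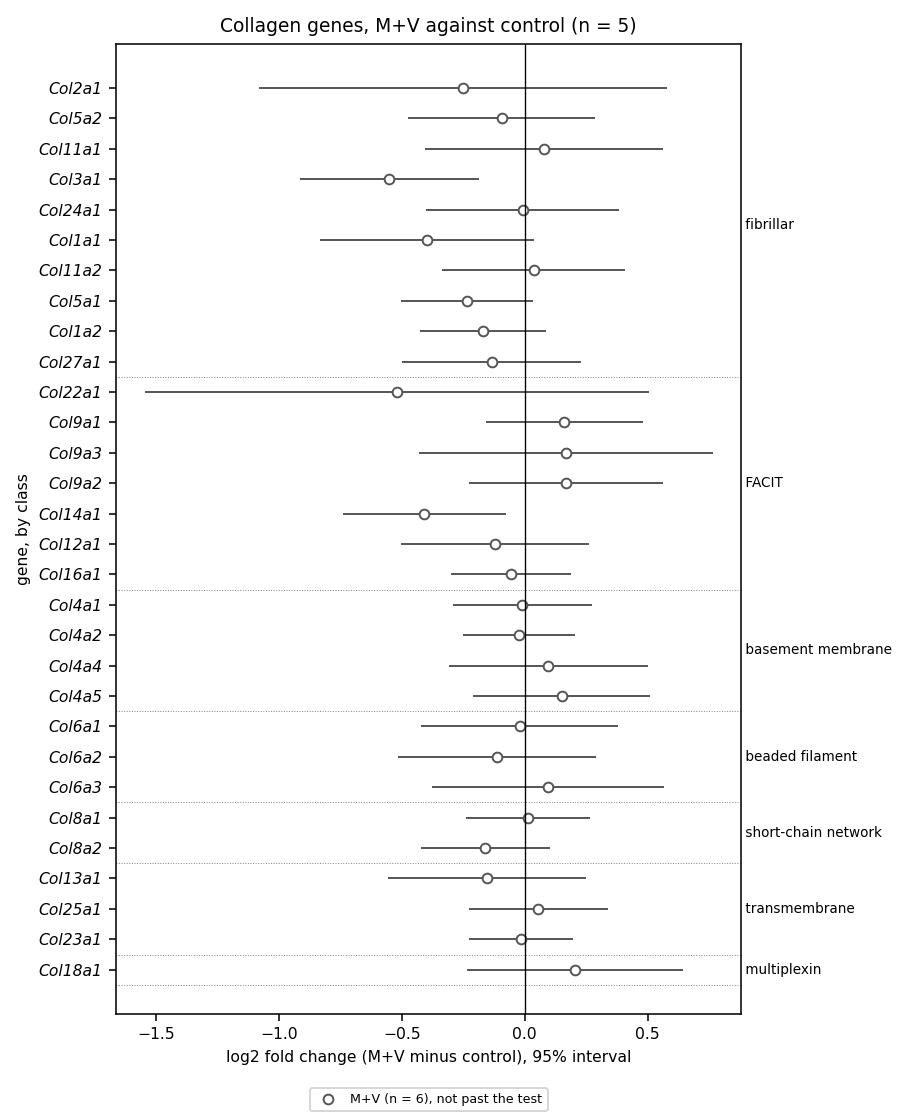
Log2 fold change of M+V against control for each tested collagen, with its 95% interval, ordered by class. No point passed the adjusted p; the intervals of Col3a1 and Col14a1 alone lie wholly below 0, and none lies wholly above it.

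Some of the genes that make, process, bind or degrade collagen fell as well. Of 51 genes listed, 45 were on the array and 37 were tested; 5 fell and 0 rose with vehicle, 6 fell and 0 rose with M+V, where 1.05% and 2.41% of all tested genes fell. Of the 37, 36 reached the array median in all 3 groups, with median log2 fold changes of -0.27 and -0.25. Lox, which crosslinks collagen and elastin, fell by 1.34 with vehicle (SE 0.27, adjusted p = 0.0202) and by 1.05 with M+V (SE 0.26, adjusted p = 0.0285). Plod2, which hydroxylates the lysines used for crosslinks, fell by 0.72 (SE 0.14, adjusted p = 0.0155) with vehicle and 0.79 with M+V (SE 0.13, adjusted p = 0.00323). Serpinh1, the chaperone Hsp47 that folds procollagen, fell by 0.66 (SE 0.13, adjusted p = 0.0147) with vehicle and 0.61 with M+V (SE 0.12, adjusted p = 0.00955).

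The gelatinase Mmp2, which degrades collagen, fell too, by 0.73 (SE 0.13, adjusted p = 0.00809) with vehicle and 0.71 with M+V (SE 0.12, adjusted p = 0.00426). The prolyl hydroxylase family member P3h3 fell with vehicle (-0.38, adjusted p = 0.0408) and was at -0.29 with M+V (adjusted p = 0.0545). Pcolce2, an enhancer of propeptide removal, and Ddr2, a collagen receptor, fell with M+V by 0.62 (adjusted p = 0.0423) and 0.79 (adjusted p = 0.0283), and were at -0.72 and -0.47 with vehicle (adjusted p = 0.0565 and 0.32). Of 3 tested transcription factors of collagen-making cells, none passed: Sox9, which drives Col2a1 in cartilage, was at -0.02 with vehicle and 0.14 with M+V, Sox6 at 0.18 and -0.36, and the osteoblast factor Sp7 at -0.56 (adjusted p = 0.116) and -0.45 (adjusted p = 0.103). In M+V against control, 0 of the 37 passed the adjusted p. By its own cutoffs, the paper lists Serpinh1 as higher with M+V than in control. Serpinh1 was among the genes it then measured by qRT-PCR, of which it names Zip4 and Hspa1b, but not Serpinh1, as significantly higher. Serpinh1 is read here from its brightest probe alone, and it was not called in M+V against control.

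Some markers of bone and of fibroblasts fell with the collagens, where 1.05% of all tested genes fell with vehicle and 2.41% with M+V. Of 7 tested osteoblast and osteocyte markers, 4 fell with vehicle (Ibsp, Alpl, Dmp1 and Mepe) and 5 with M+V (Phex as well), with medians of -0.81 and -0.99, and the summed signal of the list was 48622 to 58272 at 4w, 22136 to 34529 in control and 22512 to 30995 in M+V. Of 7 tested fibroblast markers, 4 fell with vehicle (Pdgfra, Fap, Prrx1 and Lum) and 5 with M+V (Dcn as well), with sums of 43474 to 50350 at 4w, 25533 to 33414 in control and 20820 to 31696 in M+V. Of the others, Fbln1 was at 0.05 with vehicle and -0.04 with M+V, and Dpt at 0.38 and -0.50. The sums at 4w did not overlap those of either older group in these 2 lists. Their part in the collagen result was not tested.

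Of 6 tested cartilage markers, 1 fell in each comparison, Chad, which entered the test through the 4w arrays alone, and the sums of the list overlapped: 21515 to 31571 at 4w, 21951 to 24642 in control and 19226 to 31657 in M+V. The proteoglycan Acan, which shares the cartilage matrix with Col2a1, was at -0.88 (adjusted p = 0.339) and -0.91 (adjusted p = 0.172). None of the 10 tested cochlear markers passed against 4w, but their list's sums were 80909 to 99065 at 4w and 73797 to 76990 in control, without overlap, and 57252 to 93189 in M+V, overlapping both. Their part in the collagen result was not tested either. The lowest M+V sum of the cartilage, cochlear and fibroblast lists was in each case that of M+V replicate 1. None of the 6 tested endothelial markers passed against 4w; the endothelial sums were 3053 to 3454 at 4w, 2402 to 3480 in control and 2657 to 3516 in M+V. None of the 4 tested pericyte and smooth muscle markers, 1 skeletal muscle marker, 5 brain glia markers, 3 erythroid markers and 3 osteoclast markers passed either. No marker of any list was at the floor in all arrays.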

How the data were processed

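RNA of whole left cochleae was hybridised to Affymetrix Mouse Genome arrays with 45101 probes. The authors extracted signals with GCOS and MAS5 (versions not stated) and quantile-normalized them, and the deposited values are log2 signals; sorted values were identical across the 16 arrays and ran from -3.31 to 15.4. Signals below 1, 0.869% of the table, were raised to 1 here. MAS5 present calls, which the study's methods use, were not used here, and the median filter stood in for them. By the array annotation, 34958 probes stand for 1 symbol, 932 for more than 1 and 9211 for no symbol; 64 control probes were left out. All 42 collagen symbols matched RefSeq (GRCm38.p6) by gene identifier. The 42 genes have 82 probes, 49 of them tested.

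The groups were compared with limma 3.58.1 in R 4.3.3 (lmFit, contrasts.fit, eBayes, with 1 mean per group, two-sided). Partner chains were compared with exact permutation tests over all splits of the arrays, written in Python 3.11.15. The limma script was tested on simulated data. Alternatives were cyclic loess, log2(signal + 32), the signal filter dropped or set to percentile 25 or 75, the methods' t-test, only the compared groups, array weights, blocks for replicate number and spike-in batch, each batch alone, a Gapdh 3' to 5' covariate, the mean of a gene's probes, and leaving out each array. Every probe combination of the partner chains was added after seeing the data.

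Members and lists were chosen with earlier results of these data known. Named with array values are, per class and comparison, the 3 collagens with the largest called difference, and the brightest tested member of a class with none. Col24a1, Col3a1, Col1a1 and Col14a1 were added after their values were seen.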

Additional observations from a re-analysis of the deposited data

Results flagged for a closer look

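In 4 of the 33 sets of arrays examined (the named collagens in each group), 1 array stood far from the others by Dixon's ratio, which chance gives in about 1 in 20 sets. In 2 of the 4 this was M+V replicate 1, the array with few erythroid and many osteoclast transcripts: Col22a1 was lowest there at 5.43 against 8.29 in the next array, and Col4a1 was highest at 10.1 against 9.45. Col4a1 was also high in control replicate 2, at 9.77 against 9.48. Col18a1 was high in 4w replicate 1, at 8.37 against 7.68. The part of tissue makeup in these values was not tested.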

How the results depend on the processing

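All collagens called in either comparison against 4w stayed below 0 under every alternative, and 0 collagens were called in M+V against control under any of them (at an unadjusted p under 0.05, 1 to 8). In control against 4w the 12 calls became 6 with no filter on low signals (the cause was not tested) and 1 within the high spike-in batch, where 1 control array is left; with the mean of a gene's probes there were 11, and with the methods' t-test 8. In M+V against 4w the 15 calls became 7 with the methods' t-test. The replicate block gave 8 and 15 calls. Calls over all probes in the test, in either direction, moved as well. In control against 4w they were 295 in the main test, 95 with no filter, 189 with the t-test and 166 with the replicate block. In M+V against 4w they were 1129, 317, 257 and 710. On leaving out 1 array they ran from 139 to 550 and from 591 to 1760. The residuals of same-numbered arrays had a median correlation of 0.0126 in 15 pairs, 6 of them over 0.1. No label names a pairing, and the numbers were not treated as pairs. These few correlations cannot exclude a pairing. Leaving out 1 array gave 9 to 16 calls in control against 4w, 15 to 17 in M+V against 4w and 0 in M+V against control. The lowest, 9, came without 4w replicate 1 or 5 or control replicate 4 or 5, and the calls lost were among Col1a1, Col11a2, Col4a1 and Col4a2. The highest came without M+V replicate 1, which added Col1a2, Col5a1, Col22a1 and Col9a3 with vehicle and Col6a1 and Col6a3 with M+V. Of the partner chains, 8 changes passed the adjusted p, all against 4w. That of Col9a1 to Col9a2 is counted among them, though it is given only as a description. These 8 could not be run within the low batch, where the remaining tests of M+V against control gave 0 calls. Within the high batch, where 2 M+V arrays against 5 4w arrays allow no exact p under 0.0476, there were 0. On leaving out 1 array there were 5 to 9, with 5 without 4w replicate 3. The probes of 6 of 17 collagens with more than 1 tested probe differed in their calls: Col1a2, Col22a1, Col4a1, Col8a1, Col9a1 and Col9a3. The brightest Col1a2 probe lay near the top of the scale and differed less than the gene's other tested probes. Whether its high signal limited what it could show was not tested. Low signals left 12 collagens untested.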
